A study of Mus musculus with 2 samples.

Results

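The genes of the vitamin K cycle and of the Gas6 and protein S signalling that depends on it were followed across the cells of the mouse aorta. They are Ggcx, Vkorc1 and Vkorc1l1, the ligand genes Gas6 and Pros1, and the receptor genes Axl, Tyro3 and Mertk. They were taken by gene symbol, 8 of the 32285 genes in the count tables, and each of the 8 had UMIs (unique molecular identifiers, 1 per captured RNA molecule) in the kept cells of both libraries. Aortas came from knock-in mice with a mutated matrix Gla protein (MGP) and from wild-type mice. Mice of both genotypes were 1 month old and of both sexes, their adventitia had been dissected away, and their digested aortas were freed of DAPI-stained dead cells by sorting. Each genotype is 1 droplet library with the same batch label, and how many mice were pooled and which residue was mutated are not given in the labels. The study asks how mutating MGP bears on the differentiation of cells in the aortic media that bone morphogenetic proteins regulate.

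Vitamin K is the cofactor with which gamma-glutamyl carboxylase, encoded by Ggcx, converts glutamate residues of secreted proteins into gamma-carboxyglutamate (Gla). MGP is one such protein, a calcification inhibitor made by vascular smooth muscle cells, and GAS6 and protein S are others. Each carboxylation oxidises vitamin K, and the reductases encoded by Vkorc1, the target of warfarin, and its paralog Vkorc1l1 return it to the reduced form. Carboxylated GAS6 and protein S bind phosphatidylserine on dying cells. GAS6 activates TYRO3, AXL and MERTK, the TAM receptor tyrosine kinases, and protein S activates TYRO3 and MERTK. MERTK serves macrophages in the removal of apoptotic cells, and AXL with GAS6 has been studied in the survival of vascular smooth muscle cells.

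Filtering left 6089 knock-in cells, whose median depth was 11653 UMIs, and 3588 wild-type cells, whose median depth was 20395.5 UMIs. Markers named 4 cell classes, which held none of the 8 genes among their markers. Smooth muscle cell (SMC)-like cells numbered 2544 in the knock-in and 284 in the wild-type library, fibroblast-like cells 2895 and 2628, endothelial-like cells 45 and 64, and macrophage or monocyte-like cells 294 and 353. The 3 clusters left unnamed are called here by leading genes. Those led by Chrm3 and Grem1 (191 knock-in and 57 wild-type cells) and by Erbb4 and Igfbp2 (58 and 87) carried markers of both SMCs and fibroblasts. The third, a mixed cluster of cycling cells (62 and 115), held T-cell markers at 957 CPM (UMIs per 1000000 UMIs of the same cells) in the knock-in but 16.6 CPM in the wild-type library, so it is not compared between the libraries. Cells with UMIs of Xist and none of the Y-linked Ddx3y, Eif2s3y, Kdm5d and Uty were called female, and the reverse male. Female cells made up 45.9% of knock-in and 32.5% of wild-type cells and male cells 33.6% and 56.7%. The rest had both or neither and are left out where the sexes are split. Among the kept cells, 4 barcodes occurred in both libraries. A single library stands for each genotype, so the genotypes could not be tested against each other and no p-value is given. Brackets give 95% intervals for counting error only, which say nothing of the spread between mice or preparations. Mgp itself stood at 6869 CPM in knock-in and 5174 CPM in wild-type SMC-like cells, and its counts cannot separate mutated from normal transcripts.

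The carboxylation enzymes were highest in fibroblast-like cells or near their top level there, and Ggcx was nearly absent from macrophages. Ggcx stood at 32.6 CPM (30.6 to 34.6) in knock-in and 34.7 CPM (33.2 to 36.3) in wild-type fibroblast-like cells. In SMC-like cells it stood at 22.6 CPM in the knock-in and 18.7 CPM in the wild-type library, on 755 and 100 UMIs. Macrophage or monocyte-like cells held 15 knock-in and 25 wild-type UMIs of Ggcx, or 4.11 and 4.61 CPM. The fibroblast level was 7.91-fold the macrophage level in the knock-in and 7.53-fold in the wild-type library. On the log2 scale these are 2.98 (2.26 to 3.83) and 2.91 (2.35 to 3.54), wide intervals that overlap. The endothelial-like values, 26.0 CPM in knock-in and 15.6 CPM in wild-type cells, rest on 12 and 14 UMIs. Their intervals overlap those of SMC-like cells in both libraries and that of fibroblast-like cells in the knock-in library, while the wild-type endothelial interval (8.55 to 26.2) lies below the fibroblast one.

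Vkorc1 was highest in fibroblast-like cells among the named classes and varied again among fibroblasts. It reached 454 CPM (446 to 461) in knock-in and 434 CPM (429 to 440) in wild-type fibroblast-like cells. SMC-like cells held 120 CPM (116 to 123) in the knock-in and 167 CPM (156 to 178) in the wild-type library. Macrophage or monocyte-like cells were lowest in both libraries, at 63.1 and 64.7 CPM. Within the fibroblast-like class, the cluster led by Meox2, Gdf10 and Cpz held 731 CPM in the knock-in and 740 CPM in the wild-type library. The cluster led by Pex5l, Fmod and Ccn5 held 369 and 371 CPM, so the Cpz cluster was 1.98-fold higher (1.91 to 2.06) in the knock-in library, and the interval of this fold in the wild-type library was 1.93 to 2.06. The Cpz cells were the shallowest of the fibroblasts, with medians of 4834 UMIs in the knock-in and 13417 UMIs in the wild-type library.

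Vkorc1l1 was spread more evenly. Its highest class levels were in endothelial-like cells, 47.7 CPM (29.9 to 72.3) in the knock-in and 54.7 CPM (40.5 to 72.4) in the wild-type library. Fibroblast-like cells held 32.0 and 39.1 CPM, SMC-like cells 24.6 and 32.1 CPM, and macrophage or monocyte-like cells 24.4 and 27.7 CPM. The SMC and macrophage intervals overlap in both libraries. Vkorc1 made up 93.4% of the UMIs of both reductases in knock-in and 91.7% in wild-type fibroblast-like cells. Its share was smaller in the other named classes. In macrophage or monocyte-like cells it was 72.1% (66.8 to 77.0) in the knock-in and 70.1% (65.8 to 74.0) in the wild-type library. Endothelial-like cells were alike, at 71.1% and 72.0%, and SMC-like cells lay between, at 82.9% and 83.9%. UMI counts are corrected neither for transcript length nor for capture, so such shares are compared between cells and not read as relative amounts of the proteins.

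**Figure D1:**
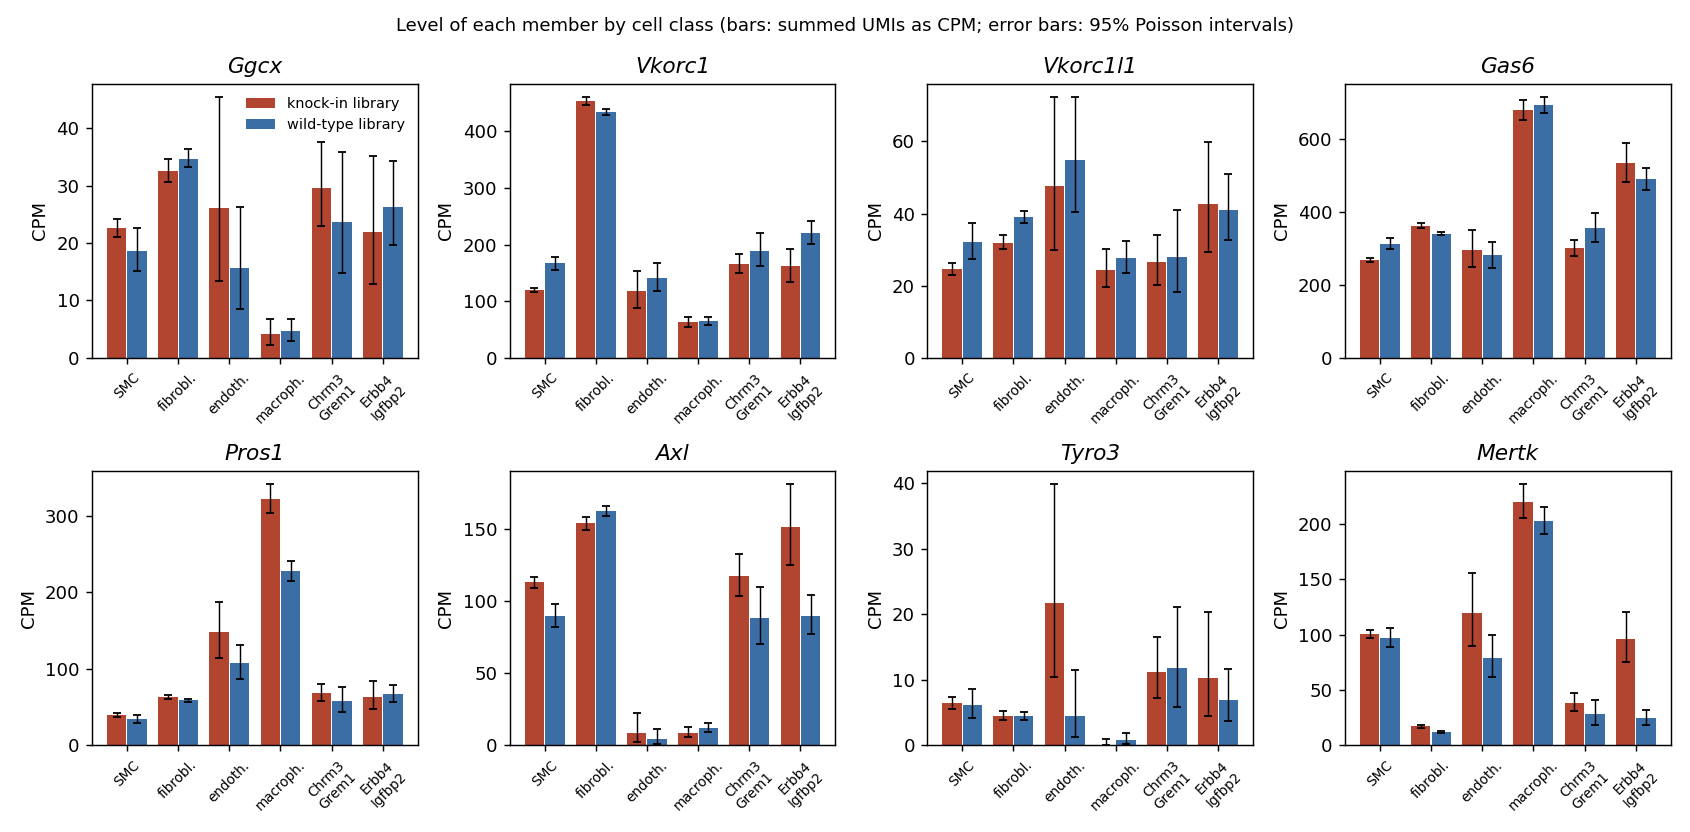
Level of each of the 8 genes in CPM (y axis, linear, a separate scale per gene) in 4 named cell classes and 2 unnamed clusters (x axis), knock-in library left in red and wild-type library right in blue. Bars are summed UMIs and error bars 95% Poisson intervals. Vkorc1 and Ggcx peak in fibroblasts, Gas6, Pros1 and Mertk in macrophages, and Axl is near 0 in macrophages and endothelial cells.

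Both ligands were highest in macrophage or monocyte-like cells, yet Gas6 was also made in quantity by every named class. Gas6 stood at 680 CPM (653 to 707) in knock-in and 694 CPM (672 to 716) in wild-type macrophage or monocyte-like cells. That was 1.87-fold the fibroblast level in the knock-in and 2.04-fold in the wild-type library. Fibroblast-like cells held 363 CPM in the knock-in and 341 CPM in the wild-type library, SMC-like cells 268 and 314 CPM, and endothelial-like cells 297 and 282 CPM. The endothelial interval overlaps that of SMC-like cells in both libraries. The unnamed Erbb4 Igfbp2 cluster came next after macrophages, with 534 CPM (484 to 588) in the knock-in and 489 CPM (459 to 521) in the wild-type library. Among fibroblasts, Gas6 was 1.78-fold higher in the Fmod cluster than in the cluster led by Wnt2, Tmem100 and Opcml in the knock-in and 1.73-fold higher in the wild-type library.

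Not all myeloid cells carried Gas6. Clustering at a finer resolution gave a macrophage or monocyte-like cluster led by C1qa, F13a1, Folr2 and Lyve1 (277 knock-in and 313 wild-type cells), genes of resident tissue macrophages. A small cluster led by Lyz1, H2-Ab1, Il1b and Ccr2 (17 knock-in and 42 wild-type cells) stayed unnamed there, with macrophage or monocyte markers first and neutrophil markers second. Together they are not exactly the cells of the macrophage or monocyte-like class. Gas6 stood at 738 CPM in knock-in and 796 CPM in wild-type cells of the Lyve1 cluster. In the Il1b cluster it stood at 62.8 CPM (46.3 to 83.3) in the wild-type library, 12.7-fold lower, and only 3 UMIs were counted in the knock-in library, a ratio of 71.4 between the clusters with a counting interval of 24.4 to 346. Mertk was also higher in the Lyve1 cluster, at 238 CPM in the knock-in and 228 CPM in the wild-type library against 17.2 and 38.0 CPM in the Il1b cluster. Pros1 was 4.33-fold higher in the Lyve1 cluster in the knock-in and 2.71-fold higher in the wild-type library. Axl ran the other way in the wild-type library, 3.02-fold higher (1.75 to 5.07) in the Il1b cluster at 30.1 CPM, against 9.98 CPM in the Lyve1 cluster, and had 1 UMI in the knock-in Il1b cluster. The clusters were made from genes other than these 8, and with 1 library each these contrasts are a description.

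Pros1, the gene of protein S, an anticoagulant cofactor and the second TAM ligand, stood at 322 CPM (304 to 341) in knock-in and 227 CPM (215 to 240) in wild-type macrophage or monocyte-like cells. Endothelial-like cells came second, with 148 CPM (115 to 187) in the knock-in and 107 CPM (86.9 to 131) in the wild-type library. Fibroblast-like cells held 62.9 and 59.0 CPM, and SMC-like cells were lowest at 39.6 and 34.1 CPM. Macrophages exceeded SMC-like cells 8.14-fold in the knock-in and 6.66-fold in the wild-type library. The order of these 4 classes was the same in both libraries and no neighbouring intervals overlapped. Of the UMIs of both ligands, Pros1 made up 32.2% (30.6 to 33.7) in knock-in and 24.7% (23.5 to 25.9) in wild-type macrophage or monocyte-like cells, and 12.9% and 9.81% in SMC-like cells.

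The receptors divided the aorta into cells with mostly Axl, cells with mostly Mertk and SMC-like cells with both. Axl stood at 154 CPM (150 to 158) in knock-in and 163 CPM (159 to 166) in wild-type fibroblast-like cells. SMC-like cells followed with 113 CPM (109 to 117) in the knock-in and 89.9 CPM (82.1 to 98.3) in the wild-type library. Macrophage or monocyte-like cells held 32 knock-in and 66 wild-type UMIs, or 8.78 and 12.2 CPM, and endothelial-like cells 4 UMIs in each library. Free RNA, bounded from barcodes of at most 100 UMIs, could make up as much as 18.5% of the macrophage value in the knock-in and 16.0% in the wild-type library, and 74.6% of the wild-type endothelial value. The fibroblast level of Axl was 17.5-fold the macrophage level in the knock-in and 13.4-fold in the wild-type library.

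Axl was concentrated in 1 kind of fibroblast. The Tmem100 cluster held 312 CPM in the knock-in (448 cells) and 299.6 CPM in the wild-type library (782 cells). The Fmod cluster held 98.6 and 91.2 CPM and the Cpz cluster 110 and 100.2 CPM. The Tmem100 cells thus exceeded the Fmod cells 3.17-fold (2.98 to 3.37) in the knock-in and 3.28-fold (3.13 to 3.44) in the wild-type library. Mertk ran the other way, at 8.20 CPM in knock-in and 7.81 CPM in wild-type Tmem100 cells against 22.7 and 14.2 CPM in Fmod cells.

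**Figure D2:**
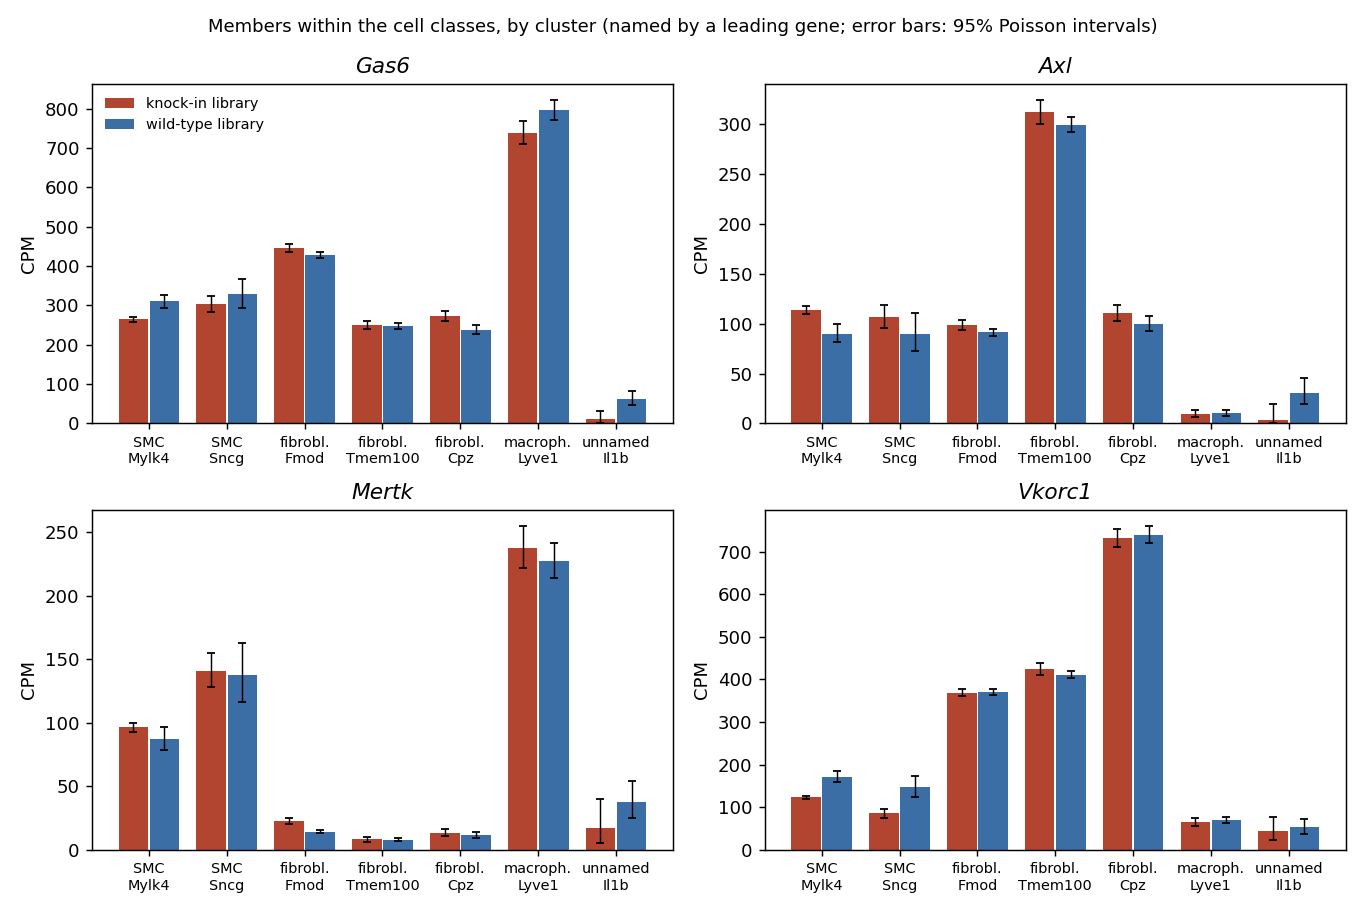
Gas6, Axl, Mertk and Vkorc1 in CPM (y axis) in the SMC-like, fibroblast-like and macrophage or monocyte-like clusters and the unnamed Il1b cluster (x axis, each cluster named by a leading gene), knock-in left in red and wild-type right in blue, with 95% Poisson intervals. Axl stands out in the Tmem100 fibroblasts (312 and 299.6 CPM), Vkorc1 in the Cpz fibroblasts (731 and 740 CPM), and Gas6 and Mertk are low in the unnamed Il1b cluster.

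Mertk was highest in macrophage or monocyte-like cells, at 220 CPM (205 to 236) in the knock-in and 203 CPM (191 to 215) in the wild-type library. SMC-like cells held 101 CPM (97.1 to 104) in the knock-in and 97.0 CPM (88.8 to 106) in the wild-type library, which was 5.82-fold the fibroblast level in the knock-in and 8.31-fold in the wild-type library. Endothelial-like cells held 119 CPM (89.9 to 155) and 79.3 CPM (62.0 to 100), and their intervals overlap those of SMC-like cells in both libraries. Fibroblast-like cells were lowest, at 17.3 CPM in the knock-in and 11.7 CPM in the wild-type library. Among SMC-like cells the smaller cluster led by Sncg, Timp4 and Pln had none of the SMC markers and 1 pericyte marker, Notch3, among its top 10 genes, though SMC markers summed there to 36171 CPM in the knock-in and 40220 CPM in the wild-type library. For Mertk it held 141 CPM in the knock-in and 138 CPM in the wild-type library, against 96.4 and 87.4 CPM in the main cluster led by Mylk4, Npnt and Sost. Pros1 was also higher in the Sncg cluster, 1.68-fold in the knock-in and 1.42-fold in the wild-type library, the wild-type interval just including no difference. If all SMC markers in the fibroblasts came from average SMC-like cells, they would bring 1.58 CPM of Mertk in the knock-in and 0.645 CPM in the wild-type library. Macrophage markers in the SMC-like cells would bring 0.162 and 0.211 CPM, scaled likewise. Cells with more Mertk per marker than the class average would bring more.

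Tyro3 was sparse, with 410 knock-in and 336 wild-type UMIs in all. SMC-like cells held 6.41 CPM (5.58 to 7.32) in the knock-in and 6.16 CPM (4.24 to 8.64) in the wild-type library, and fibroblast-like cells 4.51 and 4.43 CPM. No UMI was counted in knock-in macrophage or monocyte-like cells, where 3 counts would allow 0.823 CPM, and 4 were counted in wild-type ones. The Chrm3 Grem1 cluster held 11.2 CPM (7.25 to 16.5) in the knock-in and 11.8 CPM (5.91 to 21.2) in the wild-type library. Endothelial-like cells held 10 UMIs in 6 of 45 knock-in cells and 4 UMIs in 2 of 64 wild-type cells, too few to set against the other classes.

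Counted over the 3 receptors together, Mertk made up 96.2% of TAM UMIs in knock-in and 94.0% in wild-type macrophage or monocyte-like cells, and 79.7% and 89.9% in endothelial-like cells. Axl made up 87.6% of them in knock-in and 91.0% in wild-type fibroblast-like cells. In SMC-like cells the share of Mertk was 45.7% (44.5 to 46.8) in the knock-in and 50.2% (47.1 to 53.3) in the wild-type library, with nearly all of the rest from Axl. Each cell was also thinned to 3000 UMIs, which left out 387 knock-in and 65 wild-type fibroblast-like cells but at most 10 cells of a library in any other named class. A UMI of Mertk was then present in 23.5% of knock-in and 26.4% of wild-type SMC-like cells, in 40.1% and 41.4% of macrophage or monocyte-like cells, and in 4.19% and 3.04% of fibroblast-like cells. Before thinning the Mertk shares were 61.2% and 70.1%, 77.2% and 77.6%, and 14.6% and 18.0% in the same classes. At that depth 2 or more of the receptors were seen together in 7.77% of knock-in and 7.39% of wild-type SMC-like cells, against 2.15% and 1.13% of fibroblast-like cells. Axl and Mertk together were in 7.26% of knock-in and 6.34% of wild-type SMC-like cells, where the product of their single shares is 6.79% and 7.16%, and in 1.36% and 0.663% of fibroblast-like cells, where it is 1.27% and 0.983%. Gas6 and a receptor were seen in the same cell in 38.7% of knock-in and 35.6% of wild-type macrophage or monocyte-like cells, 25.3% and 27.8% of SMC-like cells and 18.1% and 17.2% of fibroblast-like cells.

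**Figure D3:**
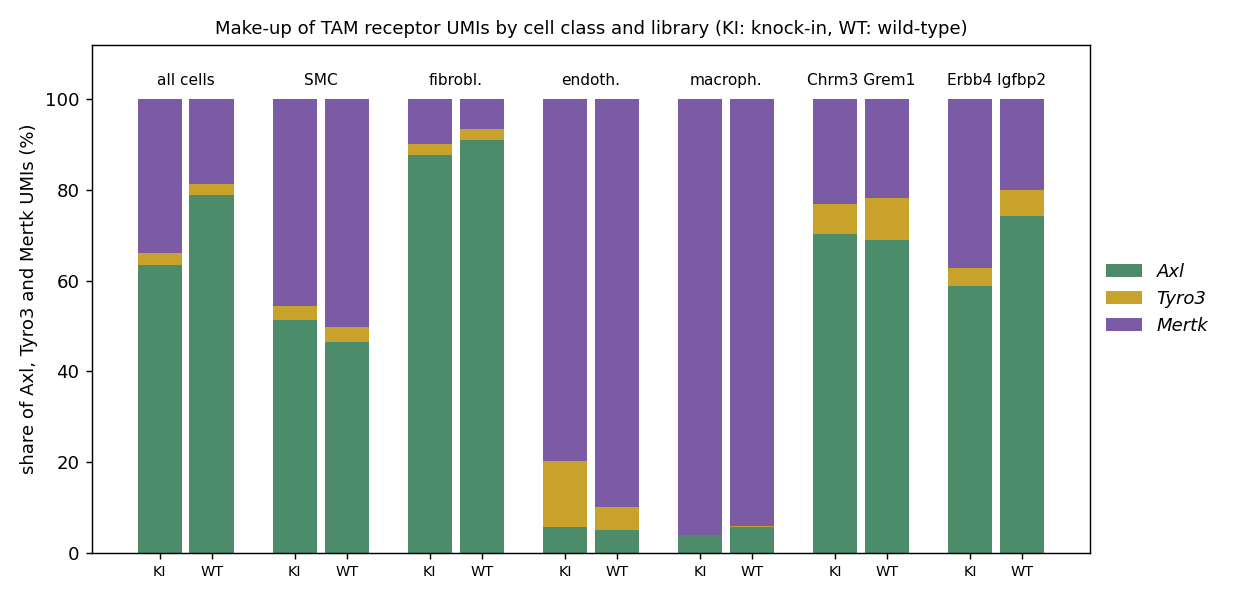
Share of TAM receptor UMIs (y axis, %) that came from Axl (green), Tyro3 (yellow) and Mertk (purple) in all cells and in each class or cluster (x axis), knock-in (KI) left and wild-type (WT) right. Mertk fills 96.2% and 94.0% of the macrophage bars, Axl 87.6% and 91.0% of the fibroblast bars, and the SMC bars are shared.

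Between genotypes, 1 of the 8 genes was at least 1.5-fold apart over all cells. Mertk stood at 66.7 CPM in the knock-in and 33.4 CPM in the wild-type library, a log2 ratio of 1.00 (0.93 to 1.07). Of the 16101 genes with at least 50 UMIs over both libraries, 28.5% were that far apart. The libraries differ in their cells: SMC-like cells made up 41.8% of knock-in and 7.92% of wild-type cells, and they held 67.9% of the knock-in and 21.2% of the wild-type Mertk UMIs. Macrophage or monocyte-like cells held 16.2% and 44.9% of them. The knock-in UMIs per cell of each class and unnamed cluster, the cycling one included, were then weighted by the wild-type shares of cells. This gave a log2 ratio of 0.55 for Mertk. The weights are shares of cells and not of UMIs, so differences in depth between classes enter such values. The same weighting moved Vkorc1, which was lower over all cells at 265 CPM in the knock-in and 369 CPM in the wild-type library, to -0.08 on the log2 scale, against -0.48 unweighted. Pros1 stood at -0.12 unweighted and 0.30 weighted, and the other 5 genes lay between -0.44 and 0.27 unweighted and between -0.28 and 0.07 weighted.

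**Figure D4:**
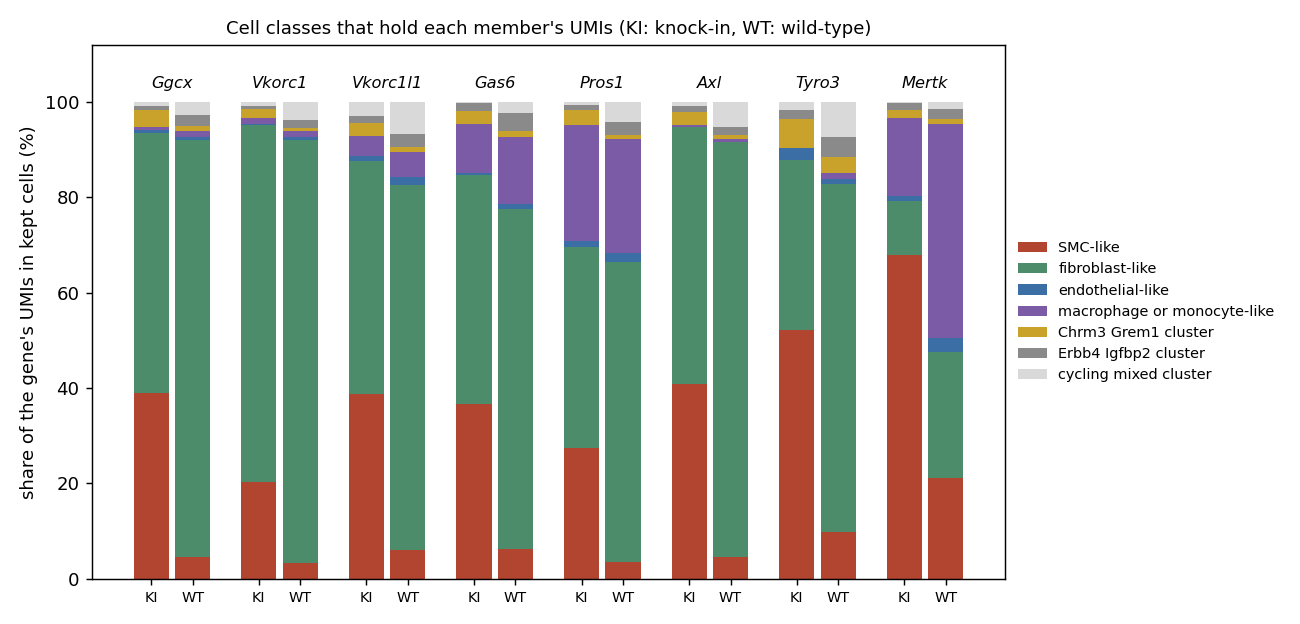
Share of each gene's UMIs in the kept cells (y axis, %) that came from each cell class or unnamed cluster (colours), knock-in (KI) left and wild-type (WT) right for each of the 8 genes (x axis). SMC-like cells hold 67.9% of the knock-in and 21.2% of the wild-type Mertk UMIs, and their part is larger in the knock-in library for every gene.

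Within SMC-like cells, 0 of the 8 genes was 1.5-fold apart, where 15.0% of 12275 genes were. Because the top genes of the Sncg cluster hold no SMC marker, its ratios are also given apart from those of the Mylk4 cluster (2306 knock-in and 232 wild-type cells). Vkorc1 was the farthest over the class, at 120 CPM in the knock-in and 167 CPM in the wild-type library, a log2 ratio of -0.48 (-0.59 to -0.37). It stood at -0.48 in the Mylk4 cluster and at -0.78 (-1.08 to -0.48), past 1.5-fold, in the Sncg cluster (238 and 52 cells). The class value lay between -0.59 and -0.38 under all 14 other settings tried, at -0.48 with free RNA subtracted and -0.49 without the cells that carry a posterior Hox UMI. Those were 4.76% of knock-in and 12.3% of wild-type SMC-like cells. Fibroblast markers summed to 1386 CPM in knock-in and 2499 CPM in wild-type SMC-like cells, all 9 of them detected in both, and fibroblast RNA in that proportion would carry 26.3 and 39.1 CPM of Vkorc1. The fibroblast markers summed to 1320 CPM in knock-in and 3492 CPM in wild-type cells of the Sncg cluster, and to 1393 and 2266 CPM in the Mylk4 cluster. The part of fibroblast RNA in these differences was not tested further.

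Vkorc1l1 had a log2 ratio of -0.38 (-0.62 to -0.14) in SMC-like cells and -0.29 (-0.40 to -0.18) in fibroblast-like cells. The SMC-like value was -0.29 (-0.56 to -0.01) in the Mylk4 cluster and -0.89 (-1.48 to -0.28), past 1.5-fold, in the Sncg cluster. It stood at -0.72 (-1.06 to -0.37) among female and -0.15 (-0.52 to 0.23) among male cells, intervals that overlap, and the difference between the sexes was not tested. Among female cells Vkorc1 (-0.59), Vkorc1l1 and Tyro3 (-0.66, on 126 knock-in and 21 wild-type UMIs) passed 1.5-fold, and among male cells Tyro3 alone did, in the other direction (0.63, on 61 and 11 UMIs). The Tyro3 intervals included 0 in both sexes, at -1.34 to 0.08 among female and -0.31 to 1.70 among male cells. The wild-type subsets were small, with 111 female and 145 male cells, and the share of all genes apart in them is not given here. Gas6 was at -0.23 (-0.30 to -0.15) in SMC-like cells, at -0.23 in the Mylk4 and -0.12 (-0.30 to 0.06) in the Sncg cluster. Axl was higher in the knock-in SMC-like cells, 113 against 89.9 CPM in the wild-type, a log2 ratio of 0.33 (0.19 to 0.47) that stood at 0.29 among female and 0.33 among male cells, at 0.34 in the Mylk4 cluster and at 0.24 (-0.10 to 0.59) in the Sncg cluster. The intervals of Ggcx (0.28), Pros1 (0.21), Tyro3 (0.06) and Mertk (0.05) included 0, that of Mertk reaching from -0.08 to 0.19. Mertk was at 0.14 in the Mylk4 and 0.03 in the Sncg cluster, both with intervals that include 0.

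In fibroblast-like cells, 0 of the 8 genes was 1.5-fold apart, where 15.4% of 14071 genes were. Mertk came closest, at 17.3 CPM in the knock-in and 11.7 CPM in the wild-type library on 559 and 646 UMIs, a log2 ratio of 0.56 (0.40 to 0.73). It was higher in each of the 3 fibroblast clusters by its point value, but only in the Fmod cluster did the interval leave out 0, at 0.67 (0.47 to 0.87). The Tmem100 cluster had 0.07 (-0.37 to 0.50) and the Cpz cluster 0.24 (-0.22 to 0.69). The ratio lay between 0.50 and 0.72 under 13 other settings and passed 1.5-fold in 7 of them. SMC markers summed to 618 CPM in knock-in and 280 CPM in wild-type fibroblast-like cells, with none of the 9 at 0, and in the Fmod cluster to 541 and 429 CPM. With free RNA subtracted the ratio was 0.54. The class ratio of Axl was -0.08 (-0.13 to -0.03), while its 3 clusters stood at 0.11, 0.06 and 0.14. The Axl-rich Tmem100 cluster held 448 of 2895 knock-in but 782 of 2628 wild-type fibroblast-like cells. Vkorc1 (0.06), Gas6 (0.09) and Pros1 (0.09) were within 0.1 of 0, and Tyro3 was at 0.03 (-0.28 to 0.33). Mesothelial markers summed to 0.402 CPM in knock-in and 27.4 CPM in wild-type fibroblast-like cells. Clustered by itself, the wild-type library gave 287 cells named fibroblast that were led by Upk3b, Gpm6a and Msln. The part of such cells in the fibroblast-like ratios was not tested.

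In macrophage or monocyte-like cells, 6 of the 8 genes had 50 UMIs and 0 of these was 1.5-fold apart, where 11.0% of 9441 genes were. Pros1 was the farthest with a narrow interval, at 322 CPM in the knock-in and 227 CPM in the wild-type library, a log2 ratio of 0.50 (0.39 to 0.62). Among male cells (126 knock-in and 199 wild-type) it stood at 407 and 234 CPM, or 0.80 (0.64 to 0.95), but among female cells (132 and 125) at 230 and 228 CPM, or 0.02 (-0.18 to 0.22). The Lyve1 cluster alone held 343 CPM in the knock-in and 249 CPM in the wild-type library. Gas6 differed by -0.03 (-0.10 to 0.04) and Mertk by 0.12 (-0.01 to 0.25). Axl had -0.47 (-1.13 to 0.16) on 32 and 66 UMIs, but 1.23 among female cells and -3.10 among male cells, which held 3 knock-in and 48 wild-type UMIs. The Lyve1 cluster alone held Axl at 9.24 CPM in the knock-in and 9.98 CPM in the wild-type library, on 31 and 47 UMIs. The Il1b cluster held 1 knock-in and 23 wild-type UMIs of Axl, and the part of this split in the class ratio was not tested.

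In endothelial-like cells, 5 of the 8 genes had 50 UMIs and 1 of these, Mertk, was 1.5-fold apart, where 19.3% of 4560 genes were. It stood at 119 CPM in the knock-in and 79.3 CPM in the wild-type library on 55 and 71 UMIs, a log2 ratio of 0.59 (0.05 to 1.12), and fell under 1.5-fold in 4 of 13 other settings. Pros1 had 0.46 (-0.01 to 0.92) and Gas6 0.08 (-0.23 to 0.38). With each library clustered by itself, lymphatic endothelial markers came second to endothelial ones in the endothelial cluster of both libraries. Their mean log2 gain was 1.83 in the knock-in and 4.0 in the wild-type cluster. Ccl21a, a lymphatic marker, was among the top 10 genes of the wild-type cluster only. The part of lymphatic cells in the endothelial-like ratios was not tested. In the unnamed Erbb4 Igfbp2 cluster Mertk stood at 95.7 CPM in the knock-in and 24.2 CPM in the wild-type library, and Axl at 151 and 90.0 CPM. SMC markers summed there to 16627 CPM in the knock-in and 6772 CPM in the wild-type library, and fibroblast markers to 5880 and 11960 CPM, and their part in these differences was not tested.

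**Figure D5:**
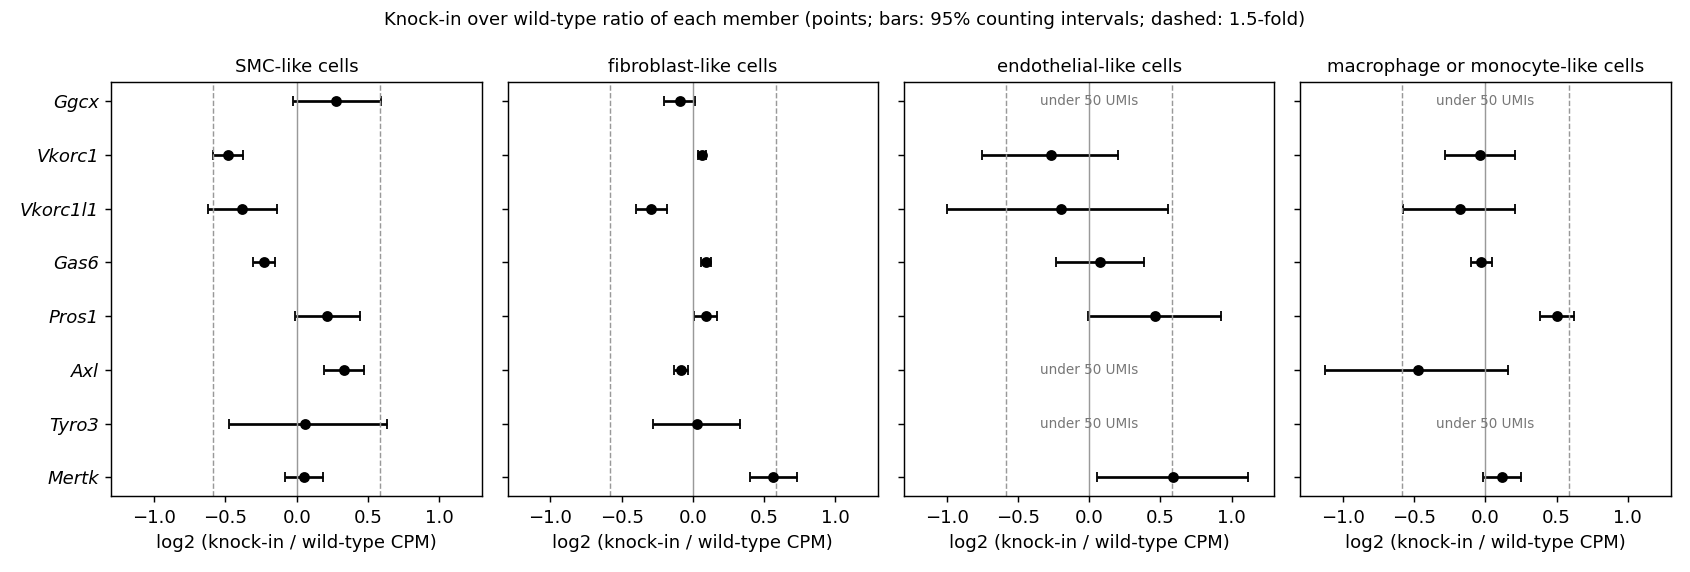
Log2 ratio of knock-in over wild-type CPM (x axis) for each of the 8 genes (rows) in the 4 named classes (panels), with 95% counting intervals and dashed lines at 1.5-fold. Genes under 50 UMIs over both libraries are not drawn. Mertk in endothelial-like cells lies just past the dashed line, Vkorc1 in SMC-like cells stands at -0.48 and Pros1 in macrophage or monocyte-like cells at 0.50.

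Other genes of vitamin K metabolism and of the carboxylation machinery in the endoplasmic reticulum were within 1.5-fold in every named class: all 10 in SMC-like and in fibroblast-like cells, the 7 measured in macrophage or monocyte-like cells and the 6 measured in endothelial-like cells. Of all genes tested, 15.0%, 15.4%, 11.0% and 19.3% were apart in these classes, in the same order, so in lists this short few or none would be. With 20 in place of 50 UMIs as the minimum, 1 of 9 was apart in macrophage or monocyte-like cells, the vitamin K reductase gene Aifm2 (-1.08, on 7 and 22 UMIs). Their median log2 ratios were 0.05, -0.11, 0.08 and -0.16, beside -0.03, -0.07, -0.01 and -0.04 for all genes tested. Pdia3, a protein disulfide isomerase, was the most displaced of the abundant ones, at 344 CPM in knock-in and 500.4 CPM in wild-type SMC-like cells (-0.54), with -0.43 in fibroblast-like and -0.47 in macrophage or monocyte-like cells. P4hb, another protein disulfide isomerase, was at 0.12, 0.08 and 0.13 in the same classes. Calu, whose product calumenin inhibits the carboxylase, was at -0.14 in SMC-like and -0.28 in fibroblast-like cells. Tmx4, a thioredoxin-related membrane protein, was at 0.09 and -0.19 in these classes.

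Of 14 other genes for Gla proteins, 4 had enough UMIs in SMC-like and in fibroblast-like cells, and none of these was 1.5-fold apart there. Of all genes tested, 15.0% and 15.4% were apart in these classes. Mgp had a log2 ratio of 0.41 in SMC-like and 0.33 in fibroblast-like cells. Prrg3, a transmembrane Gla protein, was at -0.02 in SMC-like and 0.07 in fibroblast-like cells, Prrg2 at -0.06 and -0.15, and Prrg1 at -0.09 and -0.03. In macrophage or monocyte-like cells 1 of 4 was apart, where 11.0% of all genes were: F10, the gene of coagulation factor X, with 4 knock-in UMIs (1.10 CPM) and 76 wild-type UMIs (14.0 CPM), a log2 ratio of -3.67.

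Of 15 other genes for the uptake of apoptotic cells, 9 were measured in SMC-like cells, 12 in fibroblast-like cells and 10 in macrophage or monocyte-like cells. Elmo1, part of the engulfment machinery with Dock1, was past 1.5-fold in the SMC-like class, at 35.8 CPM in knock-in and 18.1 CPM in wild-type cells (0.99), and in the fibroblast-like class at 97.5 and 52.0 CPM (0.91). It stood at 520 and 353 CPM (0.56) in macrophage or monocyte-like cells and at 475 and 573 CPM (-0.27) in endothelial-like cells. Mfge8, whose product bridges phosphatidylserine to integrins, stood at 798 CPM in knock-in and 616 CPM in wild-type SMC-like cells (0.37). In macrophage or monocyte-like cells Mfge8 was past 1.5-fold (0.82) at 31.3 and 17.7 CPM. The lipoprotein receptor gene Lrp1 was at 0.26 in SMC-like and 0.14 in fibroblast-like cells, and the integrin gene Itgb5 at 0.12 and -0.41. The other fibroblast genes past 1.5-fold, Stab2 (1.90), Cd36 (1.41), C1qa (-0.63) and Megf10 (-1.04), were all under 5 CPM in both libraries. In macrophage or monocyte-like cells C1qa, Cd36 and Stab1 stood at -0.24, 0.25 and 0.41. The list's medians were 0.19, 0.29 and 0.18 in these 3 classes, beside -0.03, -0.07 and -0.01 for all genes. Over all genes tested, 15.0%, 15.4% and 11.0% were 1.5-fold apart in these classes, against 1 of 9, 5 of 12 and 1 of 10 in the list. In endothelial-like cells 3 of 7 were apart, where 19.3% of all genes were: Lrp1 (1.07), Cd36 (-1.13) and Itgav (-0.88). The list's median there was -0.07, beside -0.04 for all genes.

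Genes for the exposure of phosphatidylserine, the lipid that the ligands bind, were within 1.5-fold with 2 exceptions, 1 of 6 in fibroblast-like cells, where 15.4% of all genes were apart, and 1 of 4 in endothelial-like cells, where 19.3% were. With a minimum of 20 UMIs the endothelial count was 2 of 5. Plscr1, a phospholipid scramblase gene, was higher in knock-in fibroblast-like cells at 45.8 CPM, against 23.6 CPM in wild-type ones (0.96), and Atp11a, a flippase gene, was lower in endothelial-like cells (-0.69, 14 and 44 UMIs). Ano6, another scramblase gene, was at 0.16 in SMC-like and 0.23 in fibroblast-like cells, and Tmem30a at 0.12 and -0.22. Among 12 genes for other TAM ligands, receptor shedding and signalling, 2 were 1.5-fold apart in SMC-like cells, where 15.0% of all genes were. Both were lower in the knock-in, Socs3, a cytokine-signalling suppressor, at 147 CPM in knock-in and 255 CPM in wild-type cells (-0.80), and the transcription factor gene Twist2 at 3.83 and 8.21 CPM (-1.10). Pik3r1, Grb2 and Adam17 stood at 0.01, -0.27 and 0.05 there. In fibroblast-like cells Lgals3, a reported ligand of MERTK, was higher at 16.9 CPM in the knock-in and 6.70 CPM in the wild-type library (1.33). Socs1 was lower in macrophage or monocyte-like cells on 16 and 61 UMIs (-1.36). In endothelial-like cells Twist1 was lower (-1.06) and Pik3r1 higher (0.68).

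Likeness of pattern was described over 14 points, the 7 classes or clusters in 2 libraries, among 11401 genes, by Pearson's r of log2(CPM + 1). The points share their libraries and the lists hold the best of many genes. Axl was most like Olfml2b (r = 0.99), Clip4 and Chpf. Vkorc1 was most like Tmed3 (0.99), Greb1l and Thbs3, and Ggcx like Scd1 (0.97), Plpp3 and Atp9a. Pros1 was most like Dock1 (0.97), itself in the list of uptake genes, Ptpn12 and Prcp. Mertk was most like Dusp3 (0.95), Clic4 and Secisbp2l, and Gas6 like Cdc14b (0.92), Slc26a11 and Il13ra1. Vkorc1l1 was most like Vps36 (0.93), Map4k4 and Lmo7, and Tyro3 like Zfp790 (0.95), Lmtk2 and Nicn1. None of these 24 neighbours was another of the 8 genes.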

How the data were processed

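The 2 deposited matrices hold raw UMI counts of each gene in every barcode, not normalized. Their headers and the submitters' processing notes name Cell Ranger 7.1.0. Which genome build and annotation it read is not given in the sources used here. Totals reached 85831737 UMIs in the knock-in and 79626104 UMIs in the wild-type library.

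Cells were barcodes with at least 1000 UMIs, 500 genes and at most 10% mitochondrial UMIs. The 0.8% per 1000 cells with the highest doublet scores (scrublet in scanpy 1.11.5) were removed, 330 knock-in and 109 wild-type cells. Its automatic threshold marked 8 and 6 cells, too few to have worked. Both libraries were clustered together on 2000 variable genes without the 8 members, Mgp, mitochondrial, ribosomal, hemoglobin and sex-linked genes (30 components, 15 neighbours, Leiden resolution 0.5, igraph 0.11.9). Clusters were named by the mean log2 gain of marker lists over the cluster where each marker is lowest, with 5 CPM added. A cluster stayed unnamed where a second list passed 0.65 of the best, or fewer than 3 markers were detected. It also did where its median depth was under 1/3 of its library's and its top 10 genes held none of its markers. That rule left out 939 cells with fibroblast markers first at resolution 1.0. It left out 791 such cells where the knock-in library was clustered by itself.

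Sums carry exact Poisson intervals, ratios exact conditional binomial intervals and shares Clopper-Pearson intervals, at 95%. PCR and capture errors are not covered. A gene was counted as apart at 1.5-fold with at least 50 UMIs over both libraries. A gene with no UMI was bounded at 3 counts per library and class. Free RNA was bounded from barcodes of at most 100 UMIs, scaled by markers of other classes. Software was numpy 2.4.6, pandas 2.3.3 and scipy 1.17.1 under Python 3.11.15. The ratio step was tested on simulated counts.

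All 8 members are named. From each of 5 lists the 4 genes with the most UMIs in a class and those past 1.5-fold were eligible for naming; 1 eligible gene is not reported here. Like genes are the 3 with the highest correlation among genes of at least 500 UMIs. The members, lists, marker lists and the naming rule were chosen with earlier results of these data known. The contrasts between clusters and the Lyve1 and Il1b split were chosen after their values were seen. The listed Ero1a was matched to the tables' Ero1l through the RefSeq synonyms. In GENCODE vM21 Gas6 overlaps Tmem255b on the opposite strand, which had 101 UMIs in kept cells, and Mertk overlaps Gm14011, which had 6.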

Additional observations from a re-analysis of the deposited data

Results flagged for a closer look

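Vkorc1 had a log2 ratio of knock-in over wild-type of -0.48 in SMC-like cells and 0.06 in fibroblast-like cells, Gas6 one of -0.23 and 0.09, and Axl one of 0.33 and -0.08. The intervals lie on opposite sides of 0 in these classes, and with 1 library per genotype the difference between classes was not tested. The fibroblast values of Vkorc1 and Axl are small and change sign: the Vkorc1 ratio was -0.18 when the cells were limited to 8000 to 20000 UMIs, and that of Axl was 0.11 in the largest fibroblast cluster. In the Fmod, Tmem100 and Cpz clusters Vkorc1 stood at -0.006, 0.04 and -0.02, with intervals that include 0. Axl stood at 0.11, 0.06 and 0.14 there, and Gas6 at 0.06, 0.02 and 0.20. The Vkorc1-rich Cpz cluster held 1012 of 2895 knock-in and 550 of 2628 wild-type fibroblast-like cells. The part of the cluster shares in the class ratios was not tested. The SMC-like values of these genes kept their sign under all 14 other settings.

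Axl in macrophage or monocyte-like cells had a ratio of 1.23 among female cells, from 25 knock-in and 13 wild-type UMIs, and of -3.10 among male cells, from 3 knock-in and 48 wild-type UMIs. The directions are opposite, and the difference between the sexes was not tested. These counts are sparse, at 15.2 and 6.52 CPM in female and 1.82 and 15.6 CPM in male cells. Over both sexes, the Lyve1 cluster held 9.24 CPM in the knock-in and 9.98 CPM in the wild-type library. The Il1b cluster held 1 knock-in and 23 wild-type UMIs, and its part in the ratios was not tested.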

How the results depend on the processing

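Over 27 log2 ratios (knock-in to wild-type) and 14 other settings, 325 of 359 values stayed within the counting interval of the reported value, and 34 lay outside it. The 325 include values that could not have moved. The endothelial-like and macrophage or monocyte-like classes are single clusters, so their largest cluster gives the reported value. With the members kept among the clustering genes, all 27 ratios were identical to the reported ones. The 1 reported value past 1.5-fold within a class, Mertk in endothelial-like cells, kept its sign. The share of all genes at least 1.5-fold apart is not given here for the other settings, so the counts below cannot be set beside it. The number of members that far apart changed as follows. In SMC-like cells it was 0, with 3 among female cells and 1 among male cells. In fibroblast-like cells it was 0, with 1 in cells of 8000 to 20000 UMIs, in male cells, after centring on the median of all genes, without doublet removal, with each library clustered by itself, at resolution 1.0 and in the largest cluster. In endothelial-like cells it was 1, with 0 in cells of 8000 to 20000 UMIs, at a mitochondrial share of at most 5%, with free RNA subtracted and without doublet removal. In macrophage or monocyte-like cells it was 0, with 2 among male cells. Vkorc1 in SMC-like cells moved to -0.59 among female cells. Pros1 in macrophage or monocyte-like cells moved to 0.0176 among female and 0.80 among male cells. The cause was not tested in any of these. No paired analysis was possible because each genotype has 1 library and the labels carry no replicate numbers. Keeping the members among the clustering genes changed nothing, since none of them was among the 2000 variable genes. Thinning to 1500 in place of 3000 UMIs gave Mertk in 12.5% of knock-in and 13.4% of wild-type SMC-like cells. Counting limits the endothelial-like class, with 45 knock-in and 64 wild-type cells and 3 of the 8 members under 50 UMIs. With 20 in place of 50 UMIs as the minimum, 4 of the 20 counts of list genes apart changed, to 1 for the other Gla proteins in fibroblast-like and in endothelial-like cells, to 2 for phosphatidylserine exposure in endothelial-like cells, and to 1 for vitamin K metabolism in macrophage or monocyte-like cells.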
